A study of Homo sapiens with 12 samples.

Results

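Claudins are the membrane proteins that form the strands of the tight junction, the belt that closes the gap between neighbouring epithelial cells. The 10 claudin genes CLDN1, CLDN3, CLDN4, CLDN7, CLDN8, CLDN9, CLDN12, CLDN15, CLDN16 and CLDN23 were taken by symbol from the 26485 genes listed, and their RNA was followed in BT474 cells through the development of tolerance and resistance to lapatinib. BT474 is a HER2-amplified breast cancer cell line of luminal type, and lapatinib is a kinase inhibitor of HER2 and EGFR. The mRNA of 12 libraries was sequenced, 3 in each of 4 groups of the same wild-type line. Control cells were harvested at day 0, drug-tolerant persisters (DTP) after 9 days, drug-tolerant expanded persisters (DTEP) after 6 months and long-term resistant cells (LR) after 9 months of 1 µM lapatinib, renewed every few days. The labels also give lapatinib as the treatment of the Control libraries, which were read as cells not yet exposed because their time is day 0. The study describes its replicates as technical, from parallel plates, so every p-value here measures the spread between these libraries and not between independent selections of resistant cells.

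In a tight junction, some claudins seal the space between cells, while others line pores for particular ions. Mammary luminal cells are known for CLDN3, CLDN4 and CLDN7, and loss of these 3 marks the claudin-low class of breast tumours. CLDN3 is a sealing claudin, and CLDN3 and CLDN4 both bind the enterotoxin of Clostridium perfringens. CLDN7 pairs with the adhesion protein EpCAM, and CLDN8 works with CLDN4 in the kidney collecting duct. CLDN15 forms a cation pore in the intestine, CLDN12 is an atypical claudin without the usual anchor for scaffold proteins, CLDN9 is needed in the inner ear, CLDN23 strengthens the intestinal barrier, CLDN16 serves magnesium reabsorption in the kidney and CLDN1 is needed for the skin barrier.

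Libraries held between 16383363 and 25030482 reads assigned to genes. All values are normalised read counts, that is, reads divided by library size and scaled by the authors for library composition, and 1 read was worth between 0.0412 and 0.0576 normalised read counts. DTEP replicate 3 stood apart from its group, with a correlation across genes of log2 values of 0.934 and 0.962 with DTEP replicates 1 and 2, against 0.982 between those 2. All 10 genes listed as BT474 identity markers (luminal keratins, ERBB2, GRB7, ESR1, PGR, GATA3 and FOXA1) had reads in all groups. Their summed level lay between 12348.1 and 12962.2 in the Control libraries and between 15657.8 and 18578.1 in the DTP libraries. It was lower in DTEP (5338.4 to 7269.3) and in LR (4791.5 to 6409.9). ERBB2 supplied much of that sum, and 8 of the 10 genes were lower and passed in LR against Control, while GATA3 rose by 2.68 (limma adjusted p = 2.05e-07) and FOXA1 by 1.00 on the log2 scale (limma adjusted p = 0.000619). Mean ESR1 went from 150.5 in Control to 8.14 in DTEP and 0.15 in LR, the last near the detection limit. Mean PGR went from 1178.5 in Control to 73.0 in DTEP and 2.45 in LR. Of the markers of other cell types, CD3E had no read, and each list moved through 1 or 2 genes. In group means, the collagen gene COL1A1 went from 55.3 in Control to 110.8 in LR, the endothelial gene VWF from 8.09 to 0.12, the basal factor TP63 from 4.94 to 42.6 and the myosin kinase gene MYLK of the basal list from 3.77 to 0.51. The basal list summed to 8.48 to 9.47 in the Control libraries, 1.25 to 3.17 in those of DTP, 6.22 to 29.2 in those of DTEP and 18.1 to 66.2 in those of LR, with KRT5 and KRT14 at or near 0 in each group. The immune list, through LYZ and CD68, summed to 2.25 to 3.59, 5.76 to 7.21, 2.53 to 4.98 and 1.26 to 1.65 in the same order. These marker levels moved with the same groups as the claudins, and their part in the claudin values was not tested.

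CLDN4 and CLDN7 made up most of the claudin RNA in every library. Divided by transcript length, so that genes can be compared, the Control level of CLDN4 was 118 ± 4.80 normalised read counts per kb (mean ± SD, n = 3), and that of CLDN7 was 100.4 ± 5.11. The next in order in Control were CLDN15 at 9.36 ± 1.10, CLDN12 at 7.56 ± 0.666 and CLDN3 at 4.19 ± 0.829 per kb. CLDN8, CLDN23 and CLDN9 followed at 3.09, 1.40 and 0.678 per kb. Over the 24 claudin genes in the table, CLDN4 and CLDN7 together held between 74.7 and 89.2% of the summed level per kb of a library.

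**Figure D1:**
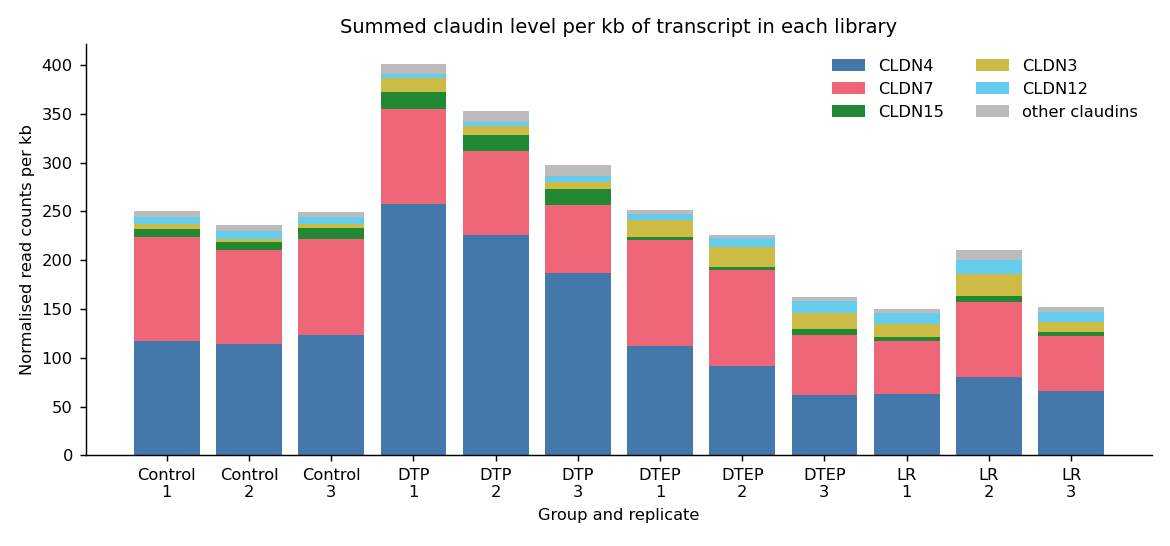
Summed level of the 24 claudin genes in each of the 12 libraries, in normalised read counts per kb of transcript (vertical axis), stacked by gene. CLDN4 and CLDN7 fill most of each bar, the DTP bars are the tallest, and CLDN3 fills 6.93 to 10.7% of each DTEP and LR bar and a smaller share of every other bar.

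The make-up of this pool differed between groups. The summed claudin level per kb of the Control libraries was 245 ± 8.07, that of the DTP libraries 351 ± 52.0, that of the DTEP libraries 213 ± 46.1 and that of the LR libraries 171 ± 34.5. CLDN4 supplied 48.2 ± 1.34% of it in Control, 63.7 ± 0.714% in DTP and less again later (41.2 ± 3.06% in DTEP, 41.1 ± 2.60% in LR). CLDN3 supplied 1.70 ± 0.287%, 2.99 ± 0.548%, 8.85 ± 1.72% and 8.90 ± 1.73% in the same order, and so moved from the fifth to the third place among the claudins by its level per kb. The 14 other claudin genes together gave at most 32 reads in a library, against at least 4952 from the 10 described here. Fewer cells that express a gene and less RNA of it per cell cannot be told apart in RNA from whole cultures.

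CLDN3 and CLDN4 are neighbours. CLDN3 lies on the minus strand of chromosome 7 (chr7:73768997-73770270) and CLDN4 on the plus strand (chr7:73830996-73832690), 60725 bases away, and each is a gene of 1 exon. CLDN12 (chr7:90403461-90415954, plus strand) and CLDN15 (chr7:101232094-101238820, minus strand) are on the same chromosome. The 250 bases before the listed start of these 4 genes are shown, 5′ to 3′ on the strand of the gene, because they belong to 2 neighbours that changed apart in DTEP (CLDN3 and CLDN4) and to a pair that changed against each other in both DTP and DTEP (CLDN12 and CLDN15), as CLDN12 also did against CLDN4 and CLDN9. Sequences and starts are from RefSeq (GRCh38.p14), at chr7:73770271-73770520 for CLDN3, chr7:73830746-73830995 for CLDN4, chr7:90403211-90403460 for CLDN12 and chr7:101237803-101238052 for CLDN15. The start used for CLDN15 lies inside the gene span given above, downstream of its outer end. Capitals mark matches, on either strand, to GGGCGG (the GC box of SP and KLF factors), GCCNNNGGC (the AP-2 element) or TGANTCA (the AP-1 site).
CLDN3: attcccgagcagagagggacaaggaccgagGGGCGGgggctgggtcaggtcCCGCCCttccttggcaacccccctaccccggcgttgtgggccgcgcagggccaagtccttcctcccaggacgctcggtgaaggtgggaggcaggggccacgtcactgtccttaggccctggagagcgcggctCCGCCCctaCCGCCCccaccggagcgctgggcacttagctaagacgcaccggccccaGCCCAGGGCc
CLDN4: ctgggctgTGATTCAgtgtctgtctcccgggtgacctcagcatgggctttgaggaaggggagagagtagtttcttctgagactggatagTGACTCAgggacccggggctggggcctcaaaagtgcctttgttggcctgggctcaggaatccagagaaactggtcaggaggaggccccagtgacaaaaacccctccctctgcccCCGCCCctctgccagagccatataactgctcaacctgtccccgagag
CLDN12: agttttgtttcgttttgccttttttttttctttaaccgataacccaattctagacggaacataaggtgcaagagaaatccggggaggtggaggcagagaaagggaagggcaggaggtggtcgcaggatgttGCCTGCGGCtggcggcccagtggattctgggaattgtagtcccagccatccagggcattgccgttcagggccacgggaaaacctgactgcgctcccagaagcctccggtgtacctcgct
CLDN15: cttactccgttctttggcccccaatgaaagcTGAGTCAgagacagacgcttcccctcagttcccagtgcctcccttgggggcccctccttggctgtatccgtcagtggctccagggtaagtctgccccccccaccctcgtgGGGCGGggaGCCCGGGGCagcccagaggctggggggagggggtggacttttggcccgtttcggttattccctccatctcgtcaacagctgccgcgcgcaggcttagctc

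TGANTCA was present 2 times before CLDN4 (as TGATTCA and TGACTCA) and 1 time before CLDN15, and in neither of the CLDN3 and CLDN12 windows. Among the members whose windows are not shown, it was present 1 time before CLDN16, which had no read, and not before CLDN1 or CLDN7. It was found in 6.57% of all 35116 promoter windows of this length. GGGCGG was present 4 times before CLDN3, 1 time each before CLDN4 and CLDN15 and not before CLDN12, against 42.6% of all windows with a match. GCCNNNGGC was present 1 time before CLDN3, CLDN12 and CLDN15 and not before CLDN4, against 19.8% of all windows. CACCTG (an E-box, in 17.5% of windows) and AACCGG (the grainyhead core, in 5.99%) had no match in these 4 windows. A window of CLDN7 held 4 matches to CACCTG and 2 to AACCGG, and that of CLDN1 held 1 to AACCGG. The letters are described only, and say nothing of whether a factor bound. The share of G and C was 54.4% before CLDN12, 58.8% before CLDN4, 64.8% before CLDN15 and 71.6% before CLDN3, with a median of 58.0% over all windows.

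After 9 days of lapatinib, CLDN3, CLDN4, CLDN9 and CLDN15 rose and CLDN12 fell. Of the 10 members, 8 were tested, as CLDN1 was below the filter on low values and CLDN16 had no read. The test was limma on log2(value + 1), with p-values adjusted over 13794 genes, and a gene was said to have risen or fallen when its adjusted p was under 0.05. In DTP against Control, 4 of the 8 tested members rose, where 25.2% of all tested genes did, and 1 fell, where 28.8% of all tested genes did. The median change of the 8 was 0.68 on the log2 scale, against -0.01 over all genes tested. All DTP libraries were above all Control libraries for 6 of the 8, as for 37.7% of all tested genes, and below for 1, as for 39.6%.

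CLDN4, the most abundant member, had 199, 193 and 209 normalised read counts in the Control libraries and 437, 382 and 317 in the DTP libraries. Every DTP library was above every Control library, and CLDN4 rose by 0.91 ± 0.20 on the log2 scale (SE, limma adjusted p = 0.00239). CLDN3 had 6.07, 4.13 and 5.82 in Control and 18.4, 12.6 and 9.67 in DTP. Its groups did not overlap either, and its means stood 2.54-fold apart, with a log2 change of 1.17 ± 0.28 (limma adjusted p = 0.00415). CLDN9 had 1.33, 0.815 and 1.07 in Control and 6.42, 5.13 and 3.63 in DTP. This was the largest rise among the members in this comparison, 4.71-fold between means, with a log2 change of 1.53 ± 0.36 (limma adjusted p = 0.00348).

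CLDN15, the cation pore claudin, had 10.5, 10.9 and 13.0 normalised read counts in Control and 21.2, 19.9 and 19.5 in DTP. The DTP libraries lay close together and above Control, a log2 change of 0.77 ± 0.23 (limma adjusted p = 0.0125), a call lost without Control replicate 1 (adjusted p = 0.05). CLDN12 went the other way, from 27.4, 28.6 and 24.1 in Control to 12.2, 14.0 and 19.2 in DTP. The groups did not overlap, and CLDN12 fell by 0.80 ± 0.24 on the log2 scale (limma adjusted p = 0.0143). That call was lost without Control replicate 2 (adjusted p = 0.0518) or DTP replicate 1 (adjusted p = 0.0639). In the GENCODE gene models, exons of CLDN12 overlap those of CDK14 and GTPBP10 on the same strand. How reads of the overlap were assigned was not checked, so the values of CLDN12 are uncertain.

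The other 3 tested members did not pass. CLDN7 had 164, 148 and 153 normalised read counts in Control and 150.0, 133 and 107 in DTP, overlapping ranges with a log2 difference of -0.26 ± 0.21 (limma adjusted p = 0.316). An exon of CLDN7 overlaps ELP5 on the opposite strand in the GENCODE gene models, and the counting settings given by the study do not use strand. The assignment of reads from that overlap is therefore uncertain. CLDN8 had 7.45, 6.63 and 5.31 in Control and 8.72, 9.33 and 12.7 in DTP, and CLDN23 had 3.08, 3.21 and 2.79 against 4.23, 4.69 and 4.26. In both genes every DTP library was above every Control library, but the differences of 0.59 and 0.42 on the log2 scale had limma adjusted p of 0.161 and 0.144. Both passed when only the 6 libraries compared entered the fit (adjusted p = 0.0184 and 0.00485). Without LR replicate 2, which is high for CLDN8 and enters the shared estimate of the spread, the CLDN8 difference passed (adjusted p = 0.0295).

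**Figure D2:**
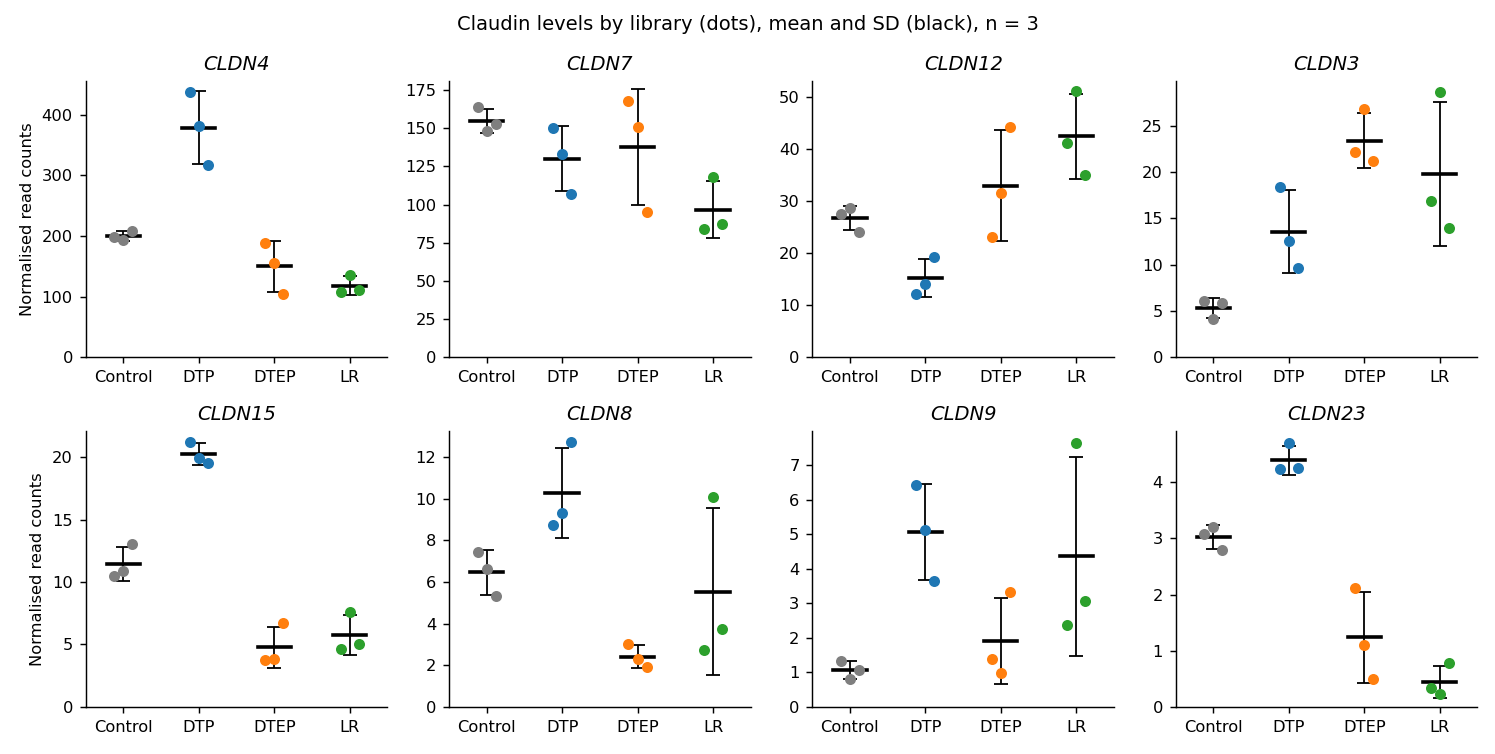
Normalised read counts (vertical axes, from 0) of the 8 tested claudins in Control, DTP, DTEP and LR, with 1 dot per library, a bar for the mean and an error bar for the SD (n = 3). CLDN4 and CLDN15 are highest in DTP, CLDN12 is lowest there, and CLDN3 is lowest in Control.

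Between the persisters and the expanded persisters, most claudins fell, while CLDN3 and CLDN12 rose. In DTEP against DTP, 5 of the 8 tested members fell, where 32.6% of all tested genes did, and 2 rose, where 35.7% did. The median change of the 8 was -1.22 on the log2 scale, against 0.08 over all genes tested. The libraries of the 2 groups did not overlap for any of these 7, as for 34.5% of all tested genes upward and 32.8% downward. A different scaling of the libraries (median of ratios) shifted all genes of this comparison by a median of -0.11.

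The largest falls were in CLDN15 and CLDN8. CLDN15 had 3.73, 3.87 and 6.68 normalised read counts in DTEP, each under 7 while each DTP library was above 19, and fell by 1.92 ± 0.23 on the log2 scale (limma adjusted p = 1.22e-05). CLDN8 had 3.01, 2.31 and 1.91 in DTEP, all below the DTP libraries, and fell by 1.72 ± 0.34 (limma adjusted p = 0.000665). CLDN4 had 189, 155 and 105 in DTEP, the lowest of them in DTEP replicate 3. All 3 were below the DTP libraries, and CLDN4 fell by 1.36 ± 0.20 (limma adjusted p = 6.85e-05).

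CLDN23 had 2.11, 1.11 and 0.505 normalised read counts in DTEP, the last of these from 9 reads. It fell by 1.33 ± 0.23 on the log2 scale (limma adjusted p = 0.000271). CLDN9 had 1.39, 0.989 and 3.31 in DTEP, with DTEP replicate 3 close to the lowest DTP library. It fell by 1.12 ± 0.36 (limma adjusted p = 0.0143), a call lost without DTP replicate 1 (adjusted p = 0.0589) or DTEP replicate 2 (adjusted p = 0.0661).

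CLDN3 had 22.2, 26.8 and 21.2 normalised read counts in DTEP, all above the DTP libraries, and rose by 0.78 ± 0.28 in log2 units (limma adjusted p = 0.0262). The rise did not pass under median-of-ratios scaling (adjusted p = 0.0551), by DESeq2 (adjusted p = 0.0608) or without any 1 of DTP replicate 2, DTP replicate 3 and DTEP replicate 2 (adjusted p from 0.0694 to 0.11). CLDN12 had 23.1, 31.5 and 44.1 in DTEP, again with no overlap with DTP, and rose by 1.05 ± 0.24 (limma adjusted p = 0.00199). CLDN7 had 168, 151 and 95.0 in DTEP, and its difference from DTP of 0.06 ± 0.21 (limma adjusted p = 0.826) turned negative under 5 of the alternatives.

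**Figure D3:**
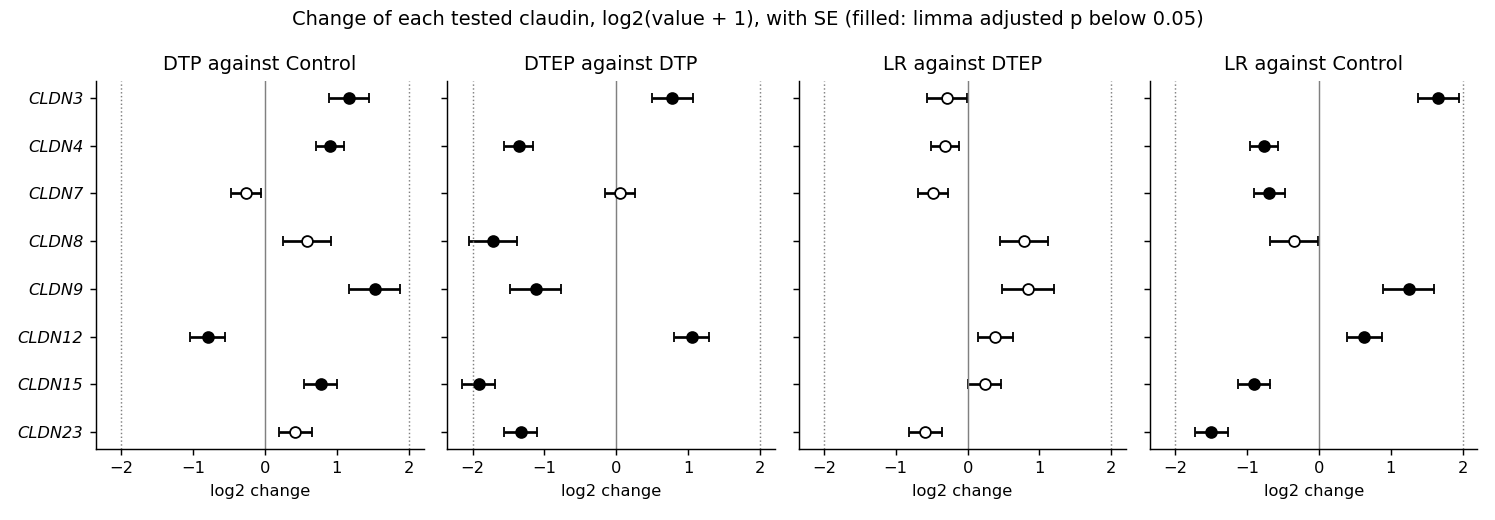
Log2 change of each tested claudin on the log2(value + 1) scale (horizontal axis) with its SE, in DTP against Control, DTEP against DTP, LR against DTEP and LR against Control, with filled points for a limma adjusted p under 0.05 and dotted lines at 2 and -2. CLDN4, CLDN15 and CLDN9 lie right of 0 in DTP against Control and left of it in DTEP against DTP, CLDN12 does the opposite, and no point of LR against DTEP is filled.

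From DTEP to LR, no claudin passed the test. Of the 8 members, 0 rose or fell in LR against DTEP, where 3.04% of all tested genes rose and 4.31% fell. The libraries overlapped for all 8, while those of 9.15% of all tested genes lay apart upward and 13.4% downward. At an unadjusted p under 0.05 there were 4 (CLDN7, CLDN8, CLDN9 and CLDN23), edgeR on the recovered reads called 0 and DESeq2 called 2, CLDN8 and CLDN23. Without DTEP replicate 3, the library that stood apart, 5 members passed in limma. CLDN4 and CLDN7 were then lower in LR, by -0.55 and -0.73 on the log2 scale, CLDN23 was lower by -0.84, and CLDN9 and CLDN12 were higher by 1.17 and 0.61.

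The LR libraries themselves spread widely for some members. CLDN8 had 2.75, 10.1 and 3.73 normalised read counts and CLDN9 had 2.37, 7.64 and 3.05, both with LR replicate 2 well above the others. CLDN3 had 16.9, 28.6 and 13.9, with the same library highest. CLDN4 had 107, 136 and 111 and CLDN7 had 84.2, 118 and 87.5. CLDN12 had 41.1, 51.0 and 35.0 and CLDN15 had 4.60, 7.58 and 5.04, so LR replicate 2 was the highest of the 3 for these 7 members. CLDN23 alone did not follow, with 0.338, 0.221 and 0.775, from 8, 4 and 16 reads.

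Set against the cells before treatment, the resistant cells had more CLDN3, CLDN9 and CLDN12 and less CLDN4, CLDN7, CLDN15 and CLDN23. In LR against Control, 3 of the 8 tested members were higher and passed, where 30.2% of all tested genes did, and 4 were lower and passed, where 32.6% did. The libraries lay apart for these 7, as for 37.6% of all tested genes upward and 39.4% downward. CLDN3 was 3.70-fold higher between means, a log2 change of 1.66 ± 0.28 (limma adjusted p = 0.000259). CLDN9 rose by 1.25 ± 0.36 (limma adjusted p = 0.00886) and CLDN12 by 0.63 ± 0.24 (limma adjusted p = 0.0357). The CLDN12 call was lost without any 1 of the Control libraries, LR replicate 1 or LR replicate 2 (adjusted p from 0.0597 to 0.126). CLDN23 fell by 1.50 ± 0.23 (limma adjusted p = 0.000128), and its LR mean of 0.445 stood against 3.03 in Control. CLDN15 fell by 0.91 ± 0.23 (limma adjusted p = 0.00401), CLDN4 by 0.77 ± 0.20 (limma adjusted p = 0.00502) and CLDN7 by 0.69 ± 0.21 (limma adjusted p = 0.0131). CLDN7 was lost without LR replicate 1 (adjusted p = 0.053). CLDN8 differed by -0.35 ± 0.34 (limma adjusted p = 0.384), and without LR replicate 2 by -0.82 (adjusted p = 0.0094).

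At 6 months CLDN3 was the one member that had risen above Control. In DTEP against Control, CLDN3 rose by 1.95 ± 0.28 on the log2 scale, 4.38-fold between means (limma adjusted p = 8.44e-05), where 29.5% of all tested genes rose. CLDN8, CLDN15 and CLDN23 fell, where 28.7% of all tested genes did, by 1.13 ± 0.34, 1.14 ± 0.23 and 0.91 ± 0.23 (limma adjusted p = 0.0122, 0.000937 and 0.00499). CLDN4 was lower in all 3 DTEP libraries than in any Control library, but its difference of -0.45 ± 0.20 did not pass (limma adjusted p = 0.0675), and did pass without DTEP replicate 1 (-0.64, adjusted p = 0.012), under median-of-ratios scaling (adjusted p = 0.0401) and by DESeq2 (adjusted p = 0.0484). The libraries lay apart upward for CLDN3, as for 33.2% of all tested genes, and downward for 4 members, as for 32.5%.

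In LR against DTP, CLDN12 rose by 1.43 ± 0.24 on the log2 scale (limma adjusted p = 0.00018), where 36.2% of all tested genes rose. CLDN4, CLDN8, CLDN15 and CLDN23 fell, where 35.3% of all tested genes did, by 1.67, 0.93, 1.68 and 1.92 (limma adjusted p = 1.1e-05, 0.025, 3.13e-05 and 1.24e-05). The CLDN8 libraries overlapped, and its call was lost by edgeR, with only the 6 libraries compared and without any 1 of DTP replicate 3, LR replicate 1 and LR replicate 3 (adjusted p from 0.0591 to 0.121). CLDN7, at -0.43 (limma adjusted p = 0.0869), passed without DTEP replicate 3 (adjusted p = 0.0218) or LR replicate 2 (adjusted p = 0.037), under median-of-ratios scaling (adjusted p = 0.0445) and by DESeq2 (adjusted p = 0.0416). CLDN3, at 0.49 (limma adjusted p = 0.132), passed without DTP replicate 1 (adjusted p = 0.0468). The libraries lay apart upward for CLDN12, as for 38.4% of all tested genes, and downward for CLDN4, CLDN15 and CLDN23, as for 38.1%. The comparisons share libraries and are not independent of each other. The stricter call used by the study, an absolute log2 change above 2 as well, was met by 0 members in all 6 comparisons, also at an unadjusted p under 0.05. Of all tested genes, it was met by 4.92% in DTP against Control, by 15.2% for DTEP against DTP, 0.681% in LR against DTEP, 10.6% in DTEP against Control, 12.8% in LR against Control and 17.9% in LR against DTP. On the recovered reads without the added 1, edgeR and DESeq2 each gave 1 such member in DTP against Control (CLDN9) and 2 in DTEP against DTP (CLDN8 and CLDN15).

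The order of groups by level can be read for each member. CLDN4 was highest in DTP, and its neighbours below, Control, DTEP and LR, did not differ step by step (limma adjusted p = 0.0675 and 0.267). CLDN15 ran DTP, Control, LR, DTEP, with the first 2 steps past the test and the last not (limma adjusted p = 0.462). CLDN3 ran DTEP, LR, DTP, Control, of which the step from DTP to Control alone passed. CLDN12 ran LR, DTEP, Control, DTP, again with the lowest step alone past the test. In CLDN23 the step from Control to DTEP passed, and in CLDN7, CLDN8 and CLDN9 no step between neighbours did.

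Ratios of reads within a library do not depend on how libraries are scaled, and were formed after the values had been seen, so they are given with no test. CLDN4 had 38.4 ± 7.29 reads for each read of its neighbour CLDN3 in Control and 29.0 ± 4.70 in DTP. The ratio was 6.43 ± 1.86 in DTEP and 6.36 ± 1.60 in LR. The lowest value in Control and DTP, 23.7, was above the highest in DTEP and LR, 8.53. CLDN4 to CLDN7 was 2.88 to 2.95 in the DTP libraries and 1.03 to 1.37 in the other 9, so CLDN4 moved apart from CLDN7 in DTP and back in DTEP. CLDN15 to CLDN12 went from 0.434 ± 0.0914 in Control up to 1.39 ± 0.361 in DTP, and was 0.145 ± 0.0200 among DTEP and 0.135 ± 0.0199 among LR libraries.

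**Figure D4:**
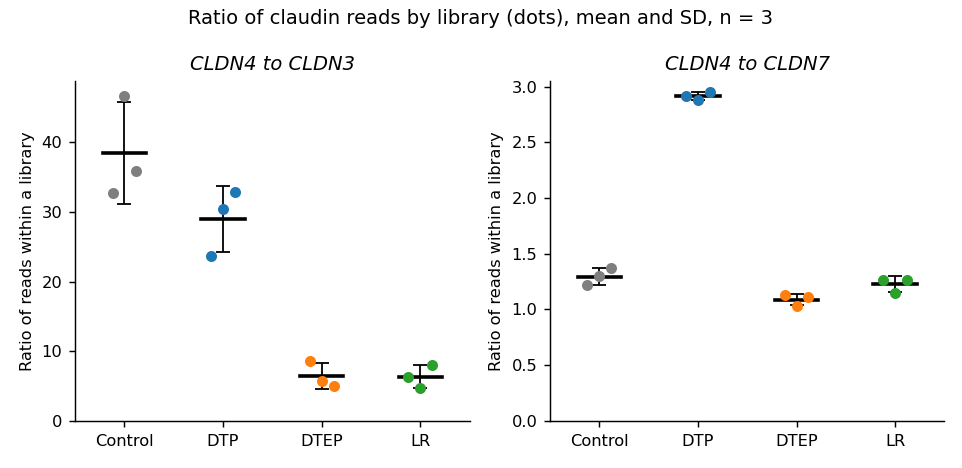
Ratio of CLDN4 reads to CLDN3 reads (left) and to CLDN7 reads (right) within each library, with 1 dot per library, a bar for the mean and an error bar for the SD (n = 3). The ratio to CLDN3 is high in Control and DTP and low in DTEP and LR, and the ratio to CLDN7 is high in DTP alone.

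CLDN1, the skin barrier claudin, was close to the detection limit. It gave 10, 8 and 12 reads in the Control libraries, 6, 20 and 29 in those of DTP, 5, 7 and 0 in those of DTEP and 0, 0 and 3 in those of LR. Summed over libraries and scaled, DTP stood at 1.99 times Control (95% interval 1.25 to 3.22), DTEP at 0.391 (0.182 to 0.787) and LR at 0.0988 (0.0193 to 0.318). The intervals cover counting error only, and the DTP libraries themselves ranged from 6 to 29 reads. With no filter on low values, limma took CLDN1 past the adjusted p for DTEP against DTP and for LR against DTP. CLDN16 gave 0 reads in all 12 libraries, which allows a level of up to 0.124 to 0.173 normalised read counts, the worth of 3 reads. CLDN1 lies within the span of CLDN16 on chromosome 3, with no shared exon.

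Of the 14 claudin genes outside the set, CLDN11, the claudin of myelin and of the testis barrier, alone passed the filter. It had 0.138, 0.489 and 0.140 normalised read counts in Control and 1.36, 1.09 and 1.09 in DTP. As these DTP libraries alone reached the value of 1 that the filter asks for, no test of CLDN11 is given. Its DTEP libraries held 0.335, 0.206 and 0.112, and its LR libraries 0.127, 0.0553 and 0.436.

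Other genes of cell junctions were counted from lists of known components. In DTP against Control, 28.8% of all tested genes fell and 25.2% rose. Of 25 tested tight junction scaffolds, 10 fell and 5 rose, and of 12 adherens junction genes, 7 fell and 2 rose. Of 9 tested membrane proteins other than claudins, 3 fell and 1 rose. Of 13 claudin partners and proteases, 3 fell and 4 rose, and of 13 epithelial transcription factors, 7 fell and 2 rose. The median log2 changes of these 5 lists, in the same order, were -0.31, -0.55, -0.27, 0.09 and -0.49, beside the -0.01 of all genes. In DTEP against DTP, where 32.6% of all tested genes fell and 35.7% rose, the same lists gave 8 lower and 7 higher scaffolds, 4 and 4 adherens junction genes, 3 and 4 membrane proteins, 1 and 6 partners, and 2 and 7 epithelial factors, with medians of -0.09, -0.24, -0.08, 0.17 and 0.61. Of the 3 tested mesenchymal factors, SNAI1 and TWIST1 rose in DTP and fell in DTEP against DTP, where ZEB1 rose. In LR against DTEP, where 4.31% of all tested genes fell and 3.04% rose, at most 2 genes of a list passed in either direction.

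The adhesion gene CDH1, which encodes E-cadherin, fell in DTEP, by more on the log2 scale than any claudin did. It had 1094.1, 1134.9 and 1145.7 normalised read counts in Control and 661, 716 and 852 in DTP, but 150.0, 89.0 and 88.9 in DTEP, and 73.5, 91.1 and 60.6 among LR libraries. Its fall of 2.79 ± 0.21 on the log2 scale in DTEP against DTP had a limma adjusted p of 3.15e-07, and the smaller fall of 0.61 ± 0.21 in DTP (limma adjusted p = 0.0276) was lost without any 1 of the Control libraries, DTP replicate 1 or DTP replicate 2 (adjusted p from 0.0593 to 0.0984). EPCAM, the partner of CLDN7, had 208, 212 and 196 in Control and 133, 144 and 153 in DTP, then 362, 363 and 266 in DTEP, and 275, 237 and 224 among LR libraries. EPCAM fell in DTP by 0.52 ± 0.14 (limma adjusted p = 0.00932) and rose in DTEP against DTP by 1.19 ± 0.14 (limma adjusted p = 1.47e-05), while CLDN7 passed neither test.

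Occludin (OCLN), the other strand protein, had 27.4, 30.7 and 28.5 normalised read counts in Control and 9.08, 11.2 and 15.5 in DTP, a fall of 1.24 ± 0.24 on the log2 scale (limma adjusted p = 0.001). It rose in DTEP against DTP by 0.89 ± 0.24 (limma adjusted p = 0.00527), with 15.5, 25.5 and 28.5, and stood at 21.9, 27.1 and 22.3 in LR. TJP1, which encodes the scaffold that binds claudin tails, had 258, 263 and 259 in Control and 98.1, 118 and 163 in DTP, a fall of 1.07 ± 0.20 (limma adjusted p = 0.000949). Its DTEP values of 104, 156 and 167 did not differ past the test from DTP (limma adjusted p = 0.463), and its LR values were 201, 215 and 177. OCLN and TJP1 fell in DTP, where CLDN3, CLDN4, CLDN9 and CLDN15 rose.

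**Figure D5:**
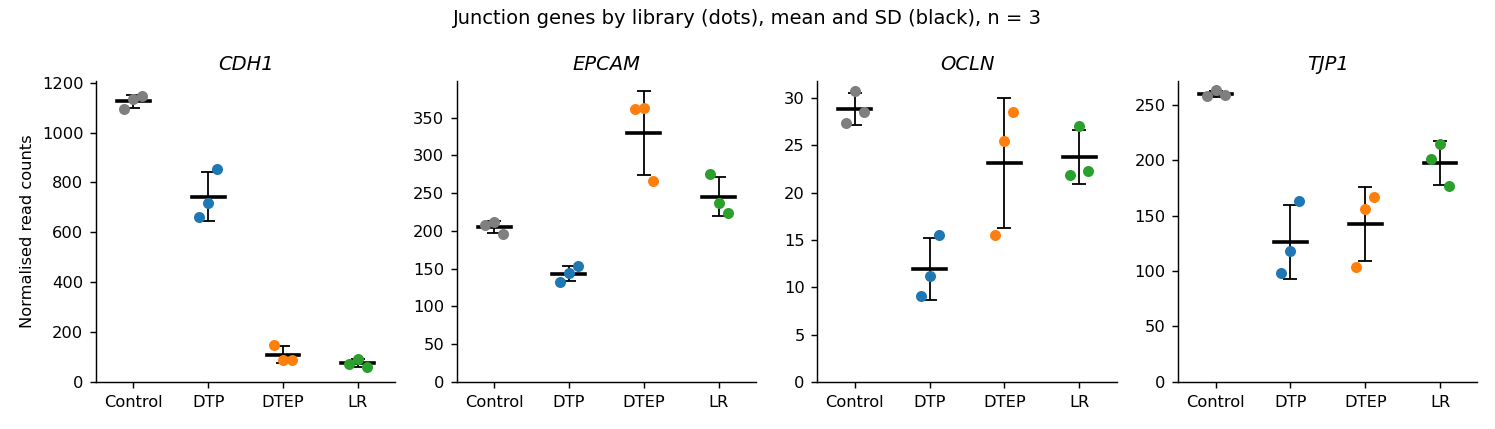
Normalised read counts (vertical axes, from 0) of CDH1, EPCAM, OCLN and TJP1 in Control, DTP, DTEP and LR, with 1 dot per library, a bar for the mean and an error bar for the SD (n = 3). CDH1 is lowest in DTEP and LR, EPCAM is highest in DTEP, and OCLN and TJP1 are highest in Control.

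The stricter call with an absolute log2 change above 2 was met in DTEP against DTP by 4 of 25 scaffolds, 2 of 12 adherens junction genes, 1 of 9 membrane proteins, 0 of 13 partners and 3 of 13 epithelial factors, beside 15.2% of all tested genes. The genes that met it in DTP against Control included the mesenchymal transcription factor TWIST1. TWIST1 rose from 9.20 ± 1.00 to 68.1 ± 5.62 (limma adjusted p = 0.000443), fell in DTEP to 3.97 ± 4.08 (limma adjusted p = 7.96e-06) and had no read in LR. In DTEP against DTP the largest rises were in EHF, an epithelial ETS factor, from 106 to 609, in ARHGEF2, an exchange factor held at tight junctions, from 22.3 to 118, and in CXADR, a junctional adhesion protein, from 13.9 to 65.4. YBX3, a DNA-binding protein that docks on TJP1's product, fell from 218 ± 10.3 to 10.6 ± 11.1 (limma adjusted p = 2.19e-05), with 22.9, 7.50 and 1.35 in the DTEP libraries. In LR against DTEP it fell by 2.47 ± 0.61 (limma adjusted p = 0.0365), a call lost when any 1 of the Control or DTP libraries, DTEP replicates 1 and 2 or LR replicates 1 and 2 was left out.

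Across the 12 libraries, some members ran together and others apart. These correlations of log2 values are descriptions, since the libraries fall into 4 groups that share treatment time. Pearson's r was 0.906 between CLDN4 and CLDN23, 0.835 between CLDN4 and CLDN15, -0.945 between CLDN4 and CLDN12 and -0.269 between the neighbours CLDN3 and CLDN4. For the 3 members with the widest range of group means, the most alike of 10999 genes were sought. For CLDN3 they were ZNF74 (r = 0.975), SELO (0.974) and TRAF4 (0.974), and TRAF4 averaged 88.7, 125, 152 and 157 normalised read counts from Control to LR. For CLDN23 they were NT5C3B (r = 0.992), FAR2P1 (0.991) and ANXA3 (0.991), and ANXA3 averaged 78.8, 189, 10.5 and 0.510. For CLDN15 they were TPCN1 (r = 0.991), SPRED3 (0.979) and ARHGEF17 (0.975), and TPCN1 averaged 109, 151, 63.0 and 77.1. Ranked by Spearman's rho, SELO, TRAF4, NT5C3B, FAR2P1, ANXA3, SPRED3 and ARHGEF17 left the 3 most alike of their member. ANXA3 also left them with a pseudocount of 0.1.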

How the data were processed

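RNA-seq of 12 BT474 libraries was analysed from 1 deposited table of 26485 genes. The authors aligned and counted reads with Rsubread against hg38 and RefSeq at default settings, and deposited values that are a signal per gene, found here to equal CPM scaled with edgeR's TMM factors. All 199680 values above 0 were whole multiples of 1 read (tolerance 1e-06), so reads were recovered. Rows without a gene symbol (1016) were not left out, and genes are named by the identifier of their row. SELO, named above, had no gene description.

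The 10 members and all gene lists were chosen with earlier results of these data known. The 13794 genes that reached a value of 1 in 3 or more libraries entered limma 3.58.1, fitted on log2(value + 1) over all 4 groups, with Benjamini-Hochberg adjustment. Fold changes on this scale understate the change of low genes. edgeR 4.0.16 and DESeq2 1.42.0 on the recovered reads were alternatives, and all 3 were tested on simulated data for DTP against Control, where limma found 197 of 200 genes changed 8-fold with 0 false calls among 13022. The simulation gave every group the same spread, so it says nothing of smaller changes or of the wider spread of the DTEP libraries. Its changed genes were drawn from those with Control means above those of CLDN9 (1.07) and CLDN23 (3.03). It therefore says nothing of genes as low as these. Other alternatives were pseudocounts of 0.1 and 0.5, filters, scaling, a log2 threshold of 1, a replicate block and leaving out each library. Same-numbered libraries did not deviate together throughout (r from -0.441 to 0.359 over 18 pairs, above 0.1 in 2). Those 2 pairs were replicates 1 (r = 0.359) and 3 (r = 0.335) of DTEP and DTP.

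Named genes were all members, the 3 junction genes with the largest stricter calls per direction and step, CDH1, EPCAM, OCLN and TJP1, and the 3 genes most alike to the 3 members of widest range. Not every gene that the rule names is reported here. Lengths are of GENCODE 44 MANE Select transcripts.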

Additional observations from a re-analysis of the deposited data

How the results depend on the processing

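Of the log2 changes recomputed for the claudins under the alternatives, 1046 kept their direction and side of the threshold, 21 lost the threshold, 19 gained it and 6 turned direction. The turned ones were CLDN7 in DTEP against DTP, at -0.067 with median-of-ratios scaling, -0.045 by DESeq2, and from -0.10 (DTEP replicate 1 left out) to 0.30 (DTEP replicate 3 left out) with a library fewer, below 0 also when DTP replicate 3 or DTEP replicate 2 was left out. CLDN7 in DTEP against Control ranged from -0.37 to 0.040 with a library fewer, the last when DTEP replicate 3 was left out. OCLN in LR against DTEP ranged from -0.18 (DTEP replicate 1 left out) to 0.24, and was below 0 also when LR replicate 2 was left out. None of these passed the test in any setting, and the cause was not tested. The count of claudins past the adjusted p in LR against DTEP went from 0 to 2 by DESeq2 (CLDN8 and CLDN23), and ranged from 0 to 5 when a library was left out, with 5 without DTEP replicate 3. Claudins past an absolute log2 change of 2 numbered 0 in the main limma fit in all 6 comparisons. A pseudocount of 0.1 in limma gave 2 in DTEP against DTP. It gave 1 each in DTP against Control, DTEP against Control, LR against Control and LR against DTP. With a pseudocount of 0.5 there was 1 each in DTEP against DTP, DTEP against Control and LR against DTP, and with median-of-ratios scaling 1 in DTEP against DTP. By edgeR the counts were 1, 2, 1, 2 and 1 and by DESeq2 1, 2, 1, 1 and 1 counting DTP against Control first, then DTEP against DTP, then DTEP against Control, LR against Control and last LR against DTP. With the threshold at 1 they were 2, 6, 3, 3 and 4. Leaving out a library gave 0 to 1 in DTEP against DTP, DTEP against Control and LR against DTP. The numbers of the libraries did not pair them throughout (r above 0.1 in 2 of 18 pairs). With a replicate block the claudins past the adjusted p stayed at 5, 7, 0, 4, 7 and 5 over the 6 comparisons. YBX3 in LR against DTEP was lost with the replicate block (adjusted p = 0.0517). CLDN9, CLDN23 and CLDN1 rest on few reads, so their values are the least precise.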
